A study of Rattus norvegicus with 40 samples.

Results

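Acly, Acss2, Acaca, Fasn, Me1, Gpam, Thrsp and Srebf1, 8 genes of hepatic fatty acid synthesis, were followed in rat liver after TCDD (2,3,7,8-tetrachlorodibenzo-p-dioxin). The genes were chosen by name, and all probe sets whose platform annotation gives exactly that symbol were used, which is 14 probe sets of the 15866 on the array that are not controls and 8 of the 10411 genes that such annotation names. Fasn, Acaca, Me1 and Srebf1 have 2 probe sets each, Thrsp has 3, and Acly, Gpam and Acss2 have 1. At 19 h after TCDD Me1 was 2.01 and 2.37 log2 units (4.02-fold and 5.16-fold) above corn oil in L-E liver with its 2 probe sets (adjusted p = 0.0407 and 0.0427), but neither Me1 nor any other member passed the study's adjusted p of 0.01 in any of the 4 strains/lines taken alone. A mean response over the 4 was added after the values had been seen. In it 3 of the 14 probe sets passed (11.4% of all), 2 of Me1 and 1 of Thrsp, all higher. At 3 h after TCDD, where there was no corn oil group, all 14 probe sets were higher in L-E than in H/W liver. Of these 4 passed (1.77% of all), all of Me1 or Thrsp. The Thrsp calls in both fits were lost when certain single arrays were left out.

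Lipogenesis turns surplus carbohydrate into fatty acids. ATP citrate lyase (Acly) and the cytosolic acetyl-CoA synthetase (Acss2) make acetyl-CoA from citrate and from acetate, acetyl-CoA carboxylase (Acaca) carboxylates it to malonyl-CoA in the committed step, and fatty acid synthase (Fasn) builds palmitate with reducing power from NADPH, part of which malic enzyme (Me1) supplies. Mitochondrial glycerol-3-phosphate acyltransferase (Gpam) starts triglyceride assembly from the acyl-CoA. Srebf1 encodes SREBP-1, the insulin- and LXR-responsive transcription factor that switches the enzymes on after a meal, and Thrsp (Spot 14) is a small nuclear protein that follows thyroid hormone, carbohydrate and the lipogenic state. Fasting is known to lower most of these mRNAs in liver.

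The animals were male rats of 10 to 12 weeks given 1 oral dose of 100 µg/kg TCDD or corn oil vehicle. Liver was taken after 3 h or, in the morning, after 19 h. Long-Evans (L-E) rats and line LnC carry the wildtype AHR, the receptor for TCDD, and are dioxin-sensitive, whereas in Han/Wistar (H/W) rats and line LnA, which are resistant, part of the AHR transactivation domain is missing. Both lines descend from L-E × H/W matings, so the strains/lines differ at other loci than Ahr too. Each of the 8 groups at 19 h (4 strains/lines, corn oil or TCDD) and the 2 groups at 3 h (TCDD in L-E and H/W) held 4 rats on 1 array each, 40 arrays in all, and there was no corn oil group at 3 h. According to the study's methods all rats of a treatment group shared a cage and feed was freely available, so cage and group cannot be told apart, and food intake of single rats was not analysed here.

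Values are log2 signals normalized by the authors (GCRMA), and levels are compared between groups within a probe set only. Arrays of a group were alike (mean correlation with the rest of the group 0.992 to 0.996), and no 2 arrays were identical. All 8 measured hepatocyte markers had means of at least 9.92, whereas 4 of 5 measured adipocyte markers had means under 5 and Plin1 lay at 2.25, below the lowest array median of 3.52. Exposure showed in the AHR battery at 19 h, in which 6 of 6 genes were called in L-E, LnC and LnA and 5 of 6 in H/W. In a piece of whole liver, fewer cells of a type and less RNA per cell cannot be told apart. The scanner files give 5 scan days, and no day is shared by the 3 h arrays, the 2 lines and the L-E and H/W arrays of 19 h.

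Promoter sequences are shown for Me1 and Thrsp, the members with the clearest differences, and for the 2 annotated starts of Srebf1. They are the 250 bases before the gene start, 5′ to 3′ in the direction of transcription, from RefSeq (GRCr8), which held an entry for 6 of the 8 members and none for Fasn and Acaca. Capitals mark the letters GCGTG (core of the AHR response element) or CCAAT (bound by NF-Y) on either strand, so that CACGC and ATTGG are matches on the other strand. The windows are Me1 at chr8:96540245-96540494, Thrsp at chr1:161138965-161139214, and Srebf1 at chr10:45529165-45529414 (upstream start) and chr10:45519011-45519260 (downstream start), all on the minus strand.
Me1: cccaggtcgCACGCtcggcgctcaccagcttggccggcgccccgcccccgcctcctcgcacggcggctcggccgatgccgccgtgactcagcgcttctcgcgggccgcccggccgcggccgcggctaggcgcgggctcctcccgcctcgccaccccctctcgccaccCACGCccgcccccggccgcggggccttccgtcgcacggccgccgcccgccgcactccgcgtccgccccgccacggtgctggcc
Thrsp: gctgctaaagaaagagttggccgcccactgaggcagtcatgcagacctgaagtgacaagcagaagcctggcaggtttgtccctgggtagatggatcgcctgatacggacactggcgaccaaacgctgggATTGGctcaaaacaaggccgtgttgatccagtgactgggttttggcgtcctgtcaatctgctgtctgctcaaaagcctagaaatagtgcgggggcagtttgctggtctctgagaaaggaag
Srebf1 upstream start: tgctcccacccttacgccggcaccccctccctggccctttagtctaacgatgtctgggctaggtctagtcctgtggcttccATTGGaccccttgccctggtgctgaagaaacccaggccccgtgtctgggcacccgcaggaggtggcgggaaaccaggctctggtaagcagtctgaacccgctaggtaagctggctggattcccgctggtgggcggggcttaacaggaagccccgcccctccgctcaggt
Srebf1 downstream start: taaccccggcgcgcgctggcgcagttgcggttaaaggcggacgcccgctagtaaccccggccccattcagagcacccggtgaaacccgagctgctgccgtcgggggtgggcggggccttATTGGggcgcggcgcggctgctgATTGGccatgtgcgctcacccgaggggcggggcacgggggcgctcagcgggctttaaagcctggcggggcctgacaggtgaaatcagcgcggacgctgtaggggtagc

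Me1 held 2 GCGTG cores, which begin 241 and 83 bases before the start, in a window of 83.2% G and C, and no CCAAT. Acly held 1 GCGTG core at 79 bases, and the other 4 members had none; 25.9% of 33469 rat promoters of the same length held at least 1. CCAAT was found once in Thrsp (121 bases before the start), Gpam, Acss2 and Acly, once at the upstream Srebf1 start and 2 times at the downstream one, against 34% of all promoters. The full AHR element TNGCGTG (4.09% of promoters), the E-box CACGTG (5.59%) and the sterol regulatory element TCACNCCAC (0.974%), searched on both strands, had no match in these windows of the 6 members. Matches are a description of these letters only.

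**Figure D1:**
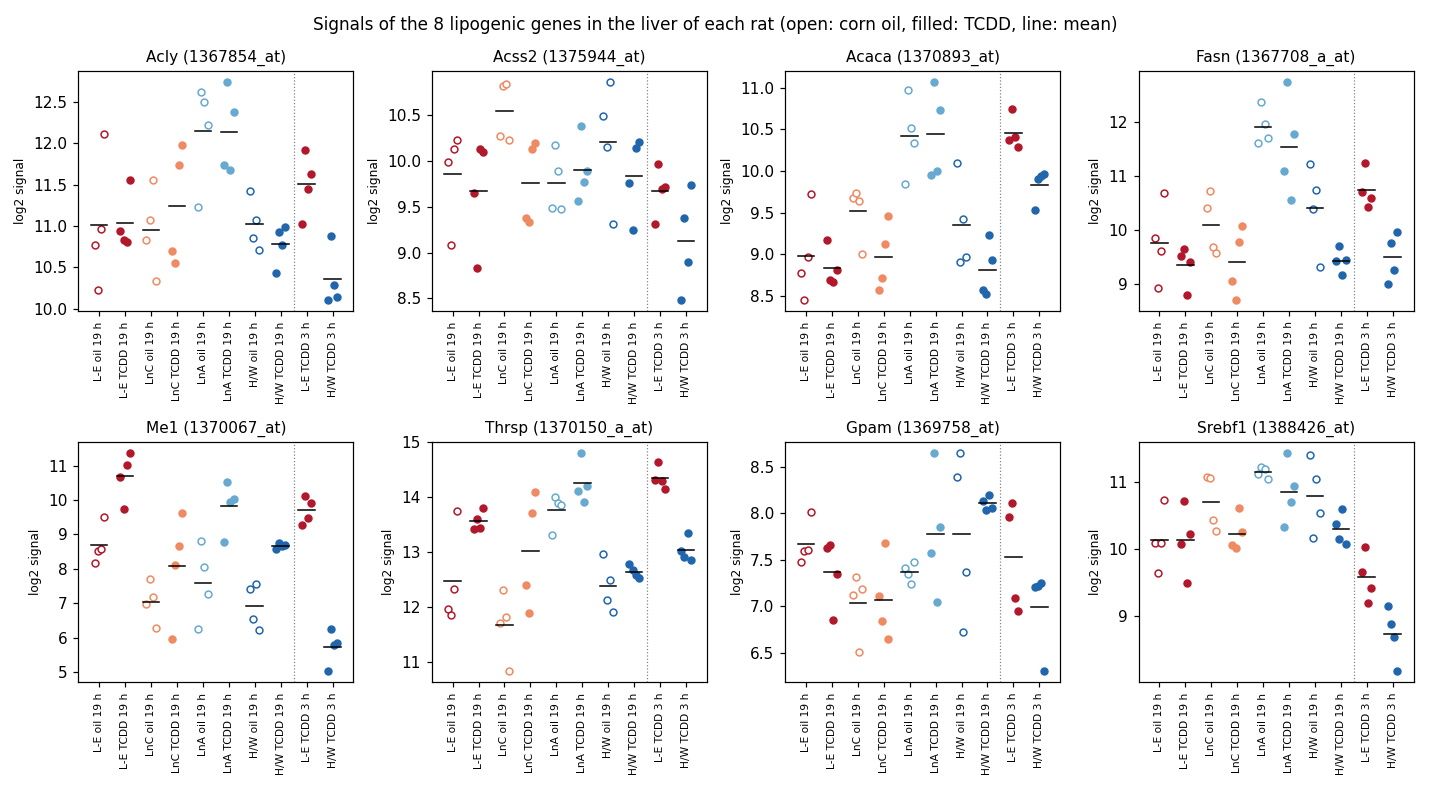
Log2 signal (vertical axis) of 1 probe set for each of the 8 genes in the 10 groups of 4 rats; open points are corn oil, filled points are TCDD, and each line is a group mean. Me1 spans the widest range, from 5.73 on average in H/W at 3 h to 10.70 in L-E at 19 h, both under TCDD, whereas Srebf1 is lowest in the 2 groups at 3 h.

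The first question was whether TCDD changed the lipogenic genes at 19 h in each strain or line. Me1, which yields NADPH from malate, was higher on average after TCDD in all 4 with both of its probe sets. Thrsp was higher on average in all 4 by 0.15 to 1.35 log2 units, Fasn was lower on average in all 4 by probe-set differences of -1.47 to -0.37, and Srebf1 differed by -0.49 to 0.04. At the study's threshold (limma, Benjamini-Hochberg adjusted p under 0.01 over all 15866 probe sets) 0 of the 14 were called in L-E, LnC, LnA or H/W, against 1.68%, 0.901%, 0.782% and 0.366% of all probe sets. At an unadjusted p under 0.05 there were 4, 3, 2 and 4 of the 14 in these strains/lines, 28.6%, 21.4%, 14.3% and 28.6%, beside 16.8%, 13%, 12.3% and 11.1% of all probe sets. The members' median difference was 0.00 for L-E, -0.10 for LnC, 0.26 for LnA and -0.12 for H/W, and the median of all probe sets lay between -0.04 and 0.01.

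Me1 (1370067_at) had signals of 8.16, 8.53, 8.58 and 9.51 in the 4 L-E rats on corn oil and of 10.66, 9.75, 11.03 and 11.37 in those given TCDD. Every TCDD rat was above every control. The difference was 2.01 ± 0.42 (SE, n = 4 a group; adjusted p = 0.0407), and the other probe set (1370870_at) gave 2.37 ± 0.50 (5.16-fold; adjusted p = 0.0427), again with no overlap. In H/W the same 1370067_at had signals of 7.40, 6.54, 7.56 and 6.23 on corn oil and 8.57, 8.74, 8.67 and 8.69 after TCDD. These groups did not overlap either, and the TCDD rats were close to each other. The difference was 1.74 ± 0.29 (3.33-fold; adjusted p = 0.0395), whereas 1370870_at gave 1.99 ± 0.54 (adjusted p = 0.183).

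These 3 values were the members that passed an adjusted p of 0.05, 2 of 14 in L-E (5.21% of all probe sets) and 1 of 14 in H/W (1.22%), and in LnC (3.01%) and LnA (2.47%) there was none. L-E and H/W arrays of 19 h were scanned on several days. Within scan day 1 the L-E difference of 1370067_at was 2.50 with 1 rat a group and within day 2 it was 1.84 with 3 rats a group. The H/W differences were 1.17, 1.65 and 2.47 on days 1, 2 and 3, with 1, 2 and 1 rats a group.

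In LnA Me1 (1370067_at) had signals of 6.26, 8.81, 8.06 and 7.27 on corn oil and 8.78, 10.51, 9.94 and 10.03 after TCDD. The highest control lay just above the lowest TCDD rat, and the difference was 2.21 ± 0.59 (adjusted p = 0.127). Replicate numbers may pair LnA rats, and with the number as a block the adjusted p of this probe set was 0.0314 and 15 probe sets of the array were called instead of 124, none of them a member. In LnC the signals were 6.97, 7.71, 7.19 and 6.27 on corn oil and 5.96, 8.12, 8.67 and 9.64 after TCDD. The TCDD rats ranged widely and enclosed the controls, and the difference of 1.06 ± 0.76 did not pass (adjusted p = 0.804).

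**Figure D2:**
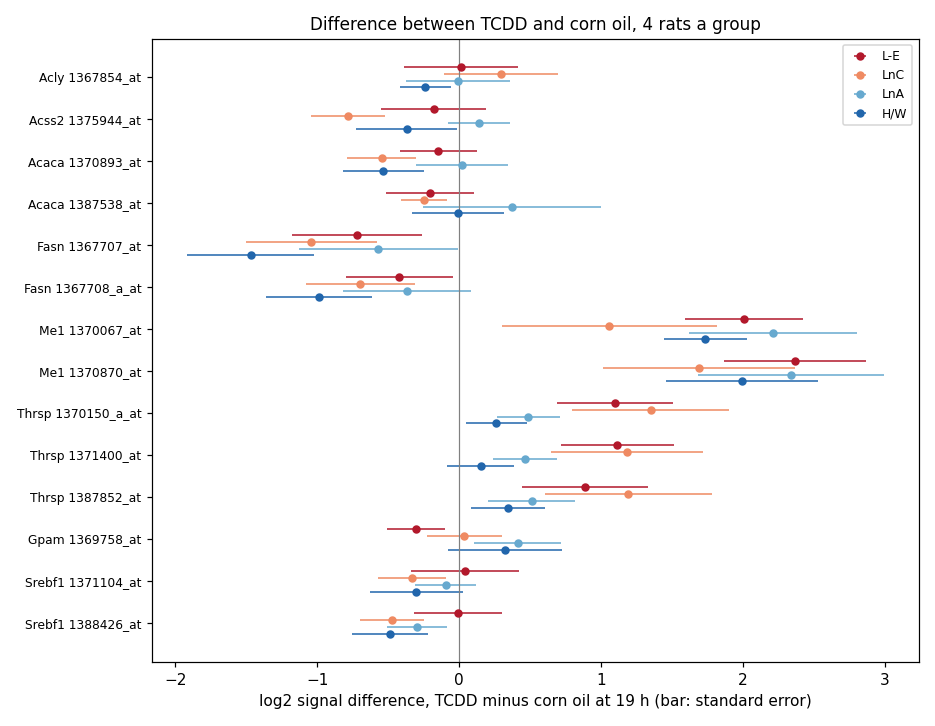
Log2 difference between TCDD and corn oil at 19 h (horizontal axis, ± SE, 4 rats a group) for the 14 probe sets in L-E, LnC, LnA and H/W. Both Me1 probe sets lie to the right of 0 in all 4, at 1.06 to 2.37, and both Fasn probe sets lie to the left, at -1.47 to -0.37.

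Thrsp (1370150_a_at) had signals of 11.96, 11.86, 12.33 and 13.75 in L-E on corn oil and 13.43, 13.61, 13.45 and 13.81 after TCDD. The fourth control stood within the TCDD range and the other controls well below it. The difference over all 8 rats was 1.10 (adjusted p = 0.23), and without that control it was 1.52 (adjusted p = 0.00659) and a second Thrsp probe set, 1371400_at, passed too (1.53; adjusted p = 0.00734). The LnC signals were 11.71, 12.31, 11.82 and 10.84 on corn oil and 12.40, 11.89, 13.71 and 14.10 after TCDD. A single TCDD rat fell within the control range, and the difference was 1.35 (adjusted p = 0.357). In the resistant strain and line the 3 Thrsp probe sets differed by 0.15 to 0.51, and no adjusted p reached 0.05.

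Among the enzymes that build palmitate, Fasn (1367707_at) had H/W signals of 10.79, 9.48, 9.98 and 8.42 on corn oil and 8.15, 8.46, 8.07 and 8.12 after TCDD. The lowest control lay within the TCDD range, and the difference of -1.47 did not pass (adjusted p = 0.248). The differences of this probe set were -0.72 for L-E, -1.04 for LnC and -0.57 for LnA. Acaca differed by at most 0.55 in either direction in each strain or line. Its second probe set (1387538_at) was dim, with group means of 3.69 to 4.89 at 19 h, where the array medians were 3.52 to 3.76, and a highest signal of 6.05 in L-E at 3 h.

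The enzymes that make acetyl-CoA gave 1 separation. Acss2 in LnC had signals of 10.27, 10.82, 10.84 and 10.23 on corn oil and 9.37, 9.33, 10.12 and 10.19 after TCDD, so that every TCDD rat was below every control. The difference was -0.78 (adjusted p = 0.228). It was the only member of 14 without overlap in LnC, where 8.57% of all probe sets did not overlap, and L-E and H/W each had 2 (11.6% and 7.31%), all of them Me1, and LnA 1 (7.73%), Me1 too. Acly differed by -0.24 to 0.29 and Gpam by -0.30 to 0.41. Srebf1, the regulator, did not pass either (1388426_at), at -0.47 in LnC (adjusted p = 0.468) and -0.49 in H/W (adjusted p = 0.565).

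A mean TCDD response over the 4 strains/lines, a comparison added after the values had been seen, drew on all 32 arrays of 19 h. In it 3 of the 14 probe sets were called, all higher, in a fit that called 11.4% of all probe sets. Me1 rose by 1.75 ± 0.29 (3.37-fold; adjusted p = 5.93e-05) and 2.10 ± 0.32 (4.28-fold; adjusted p = 1.93e-05), and Thrsp (1370150_a_at) by 0.80 ± 0.20 (1.74-fold; adjusted p = 0.00503). The Thrsp call was lost without LnA TCDD replicate 2 or without LnC TCDD replicate 3 (adjusted p = 0.0101 in each case). At an adjusted p of 0.05 there were 7 of 14 (16.6% of all), namely the 3 Thrsp and 2 Me1 probe sets higher and Fasn lower by -0.95 (1367707_at; adjusted p = 0.0105) and -0.62 (adjusted p = 0.048). Srebf1 differed by -0.17 and -0.32 (lowest adjusted p = 0.137), Acly by 0.01, Gpam by 0.12 and Acss2 by -0.30.

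Whether the response to TCDD differed between sensitive and resistant animals was tested as an interaction. No member of 14 was called in the collective interaction (L-E and LnC against H/W and LnA; 0.063% of all), in L-E against H/W (0.0315%) or in LnC against LnA (0.0693%), and 2, 0 and 1 had an unadjusted p under 0.05, beside 7.39%, 9.47% and 4.07% of all probe sets. The 2 for the collectives were Thrsp probe sets, and 1370150_a_at gave a response larger by 0.85 ± 0.40 log2 units in sensitive animals, which did not hold after adjustment (limma, unadjusted p = 0.0448, adjusted p = 0.54). For Me1 (1370067_at) the difference between the collectives was -0.44 ± 0.58 (adjusted p = 0.673), an error too wide to tell like from unlike responses with 4 rats a group. In LnC against LnA the Acss2 interaction was -0.92 (limma, adjusted p = 0.975).

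Corn oil rats showed how the genes stood in the strains/lines without TCDD. None of the 14 was called at 0.01 in any of 4 comparisons, L-E against H/W (0.813% of all), LnC against LnA (0.378%), LnA against H/W (1.7%) and LnC against L-E (2.28%). At an unadjusted p under 0.05 there were 3, 8, 8 and 1 of 14, beside 16.3%, 8.44%, 15.6% and 23.8% of all probe sets. Between the lines, the mean of LnC was below that of LnA in 13 of 14 probe sets, the groups did not overlap in 7 (5.09% of all), and the members' median was -0.99 beside -0.01 for all probe sets.

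Thrsp (1370150_a_at) had corn oil signals of 13.32, 14.01, 13.90 and 13.86 in LnA and of 11.71, 12.31, 11.82 and 10.84 in LnC. Every LnC rat was below every LnA rat. The 3 Thrsp probe sets differed by -2.10 (adjusted p = 0.0241), -2.10 (0.0253) and -2.26 (0.0222), and they were the 3 of 14 that passed 0.05 (0.908% of all). All 3 passed 0.01 without L-E corn oil replicate 4, an array outside this contrast that shares the fit's estimate of spread. Fasn (1367708_a_at) had signals of 11.62, 12.37, 11.96 and 11.70 in LnA and 10.41, 10.72, 9.69 and 9.57 in LnC, again without overlap, and differed by -1.82 (adjusted p = 0.0727). Acss2 was the exception, higher in LnC by 0.78 (adjusted p = 0.479). The 6 measured macrophage and immune cell markers had a mean of 5.65 to 5.82 in LnC rats and 5.17 to 5.26 in LnA rats. Cd14, higher in LnC by 2.21, was the sole marker of the 6 that was called, and 3 of them had means under 5. Their part in these differences was not tested.

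LnA was also compared with H/W, which carries the same AHR variant. The difference was positive in 11 of 14 probe sets with a median of 1.10, and 1 passed 0.05 (4.82% of all), Thrsp (1387852_at) at 1.62 (adjusted p = 0.0463). Fasn was 1.39 and 1.50 higher in LnA, Acaca (1370893_at) 1.07 and Acly 1.13. H/W and LnA were scanned on different days, so scan day and strain cannot be told apart here. The mean of the 6 macrophage and immune cell markers lay between 5.44 and 5.62 in the H/W rats, above the 5.17 to 5.26 of the LnA rats, and its part was not tested. Me1 was higher in L-E than in H/W on corn oil by 1.77 (adjusted p = 0.0953) and 1.88 (0.2), and the gap in 1370067_at was 0.76 within scan day 1 and 1.83 within day 2. The mean of the 5 adipocyte markers was 3.64 to 3.82 in these L-E rats and 3.36 to 3.55 in H/W, that of the 6 macrophage and immune cell markers was 5.62 to 5.96 and 5.44 to 5.62, and their part was not tested. In the order of the 10 group means most neighbours were not apart. Sorting the means makes the steps between neighbours small, so this does not say that groups further apart in the order are alike. For Fasn all 9 steps from LnA on corn oil (11.91 for 1367708_a_at) down to the lowest mean (9.34) were within the larger SD of the 2 groups, for Acaca 8 of 9 (1370893_at), and for Me1 6 of 9 (1370067_at).

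At 3 h after TCDD the question was whether L-E and H/W livers differed in these genes early. All 14 probe sets were higher in L-E, with a median of 1.29 beside -0.05 for all probe sets, and 4 were called (1.77% of all). At 0.05 there were 11 of 14 (5.9% of all), and in 12 the groups did not overlap, as was the case for 34% of all probe sets. Since there was no corn oil group at 3 h, a response to TCDD and a difference between the strains cannot be told apart.

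Me1 (1370067_at) had 3 h signals of 9.29, 10.12, 9.47 and 9.92 in L-E and of 5.03, 6.25, 5.79 and 5.84 in H/W. Every L-E rat was far above every H/W rat. The difference was 3.97 ± 0.29 (15.7-fold; adjusted p = 0.00083), and 1370870_at gave 4.94 ± 0.25 (adjusted p = 0.000206), with H/W signals of 4.07 to 4.52 that lay not far above the array medians, so that no fold is given. Thrsp (1370150_a_at) had signals of 14.31, 14.65, 14.30 and 14.15 in L-E and 13.03, 12.92, 13.35 and 12.87 in H/W. The strains were well apart, by 1.31 ± 0.14 (2.49-fold; adjusted p = 0.00367), and 1371400_at gave 1.34 (adjusted p = 0.00388). The calls for Thrsp were lost when H/W replicate 1, 2 or 4 or L-E replicate 1 or 3 was left out, which left the 2 Me1 calls.

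The other genes passed 0.05 but not 0.01 or did not pass. Fasn was higher in L-E by 1.54 (adjusted p = 0.0307) and 1.25 (0.0385), Acaca by 0.62 (0.0391) and 1.39 (0.0158), and Acly by 1.15 (0.038). Srebf1 (1371104_at) had signals of 8.11, 8.48, 7.73 and 7.98 in L-E and 7.17, 6.75, 6.98 and 6.33 in H/W. These did not overlap and differed by 1.27 (adjusted p = 0.0206), whereas 1388426_at gave 0.85 (0.0876). Gpam at 0.53 (0.238) and Acss2 at 0.55 (0.158) did not pass.

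Markers of other cells also differed between L-E and H/W at 3 h. The 6 macrophage and immune cell markers had a mean of 5.85 to 6.26 in L-E rats and 5.44 to 5.57 in H/W rats, with Csf1r called at 0.96 and 3 of the 6 under a mean of 5. The 5 adipocyte markers had a mean of 3.68 to 3.85 in L-E and 2.97 to 3.52 in H/W, none of them called, and the 6 blood and pancreas markers 5.56 to 5.66 and 6.07 to 6.21, with Cela1 called at -2.41. Their part in the lipogenic differences was not tested. The fit called 194 of 281 probe sets higher in L-E as deposited, 69 of 158 after quantile normalization and 231 of 292 after median centring. The 12 member differences recomputed under them, all but those of Gpam and Acss2, kept their sign. These 12 were chosen for an unadjusted p under 0.05 in the same data, so a change of sign was unlikely.

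**Figure D3:**
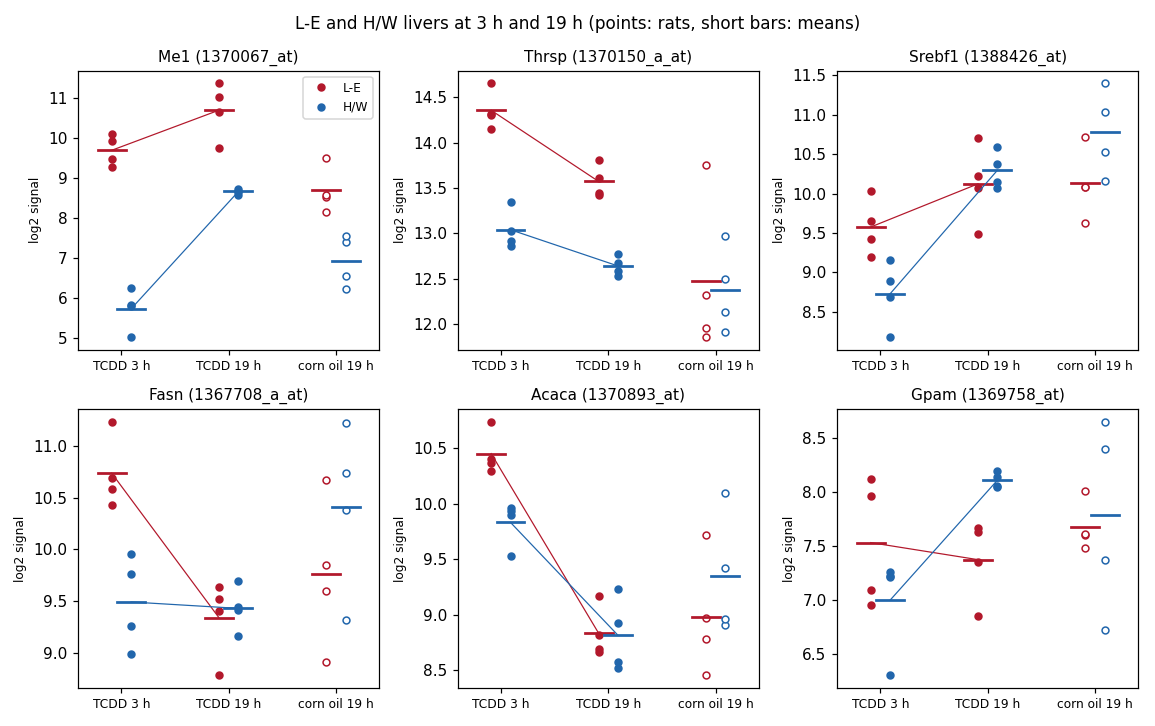
Log2 signal (vertical axis) of Me1, Thrsp, Srebf1, Fasn, Acaca and Gpam in L-E rats and in H/W rats, 3 h and 19 h after TCDD and 19 h after corn oil; points are rats, short bars are group means and thin lines join the means under TCDD. Me1 and Srebf1 are higher at 19 h than at 3 h in H/W, and Fasn and Acaca are lower at 19 h than at 3 h in L-E.

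The change between 3 h and 19 h after TCDD was examined within L-E and within H/W. L-E rats fell in 3 of 14 probe sets (3.44% of all were called), all of them enzymes of palmitate synthesis, and H/W rats rose in 4 of 14 (4.25%), the probe sets of Me1 and Srebf1. All 3 h arrays had a scan day of their own, so time and scan day cannot be told apart. The study's methods give morning hours for liver taken at 19 h and describe no group at 3 h. Whether the time of day was alike is therefore not known here. These comparisons share their TCDD arrays with those at 3 h and 19 h.

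In L-E Acaca (1370893_at) had signals of 10.37, 10.74, 10.41 and 10.29 at 3 h and of 9.17, 8.69, 8.66 and 8.81 at 19 h. Every rat of 19 h was below every rat of 3 h, and the change was -1.62 (adjusted p = 0.00135), with -1.64 (0.0042) from the second, dim probe set. Fasn (1367707_at) changed from 9.83, 10.35, 9.57 and 10.07 to 8.28, 8.27, 7.50 and 8.06. That too was without overlap, a change of -1.93 (adjusted p = 0.00366). L-E corn oil rats at 19 h had Fasn signals of 8.67, 7.59, 8.87 and 9.85, of which 3 lay below every rat of 3 h. At 0.05 there were 7 of 14, all lower (8.47% of all), the second Fasn and the 3 Thrsp probe sets being added, and these 7 had no overlap (17.6%). Without L-E TCDD 3 h replicate 1, 2 or 4 or L-E TCDD 19 h replicate 4, only Acaca (1370893_at) was called. The dim Acaca probe set also lost its call without L-E TCDD 19 h replicate 1, 2 or 3.

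In H/W Me1 (1370067_at) rose from 5.03, 6.25, 5.79 and 5.84 to 8.57, 8.74, 8.67 and 8.69, by 2.94 (adjusted p = 0.000655), and 1370870_at by 3.20 (adjusted p = 0.000106). Srebf1 (1371104_at) rose from 7.17, 6.75, 6.98 and 6.33 to 9.32, 9.21, 9.74 and 8.99. The groups did not overlap, and the change was 2.51 ± 0.22 (5.68-fold; adjusted p = 0.000885), and 1388426_at gave 1.57 (adjusted p = 0.00515). The call of 1388426_at was lost without H/W TCDD 3 h replicate 2 or 3 or any of the 4 H/W TCDD rats of 19 h (adjusted p of 0.0130 to 0.0170). H/W corn oil rats at 19 h had Srebf1 signals of 10.55, 9.09, 9.63 and 9.20, which overlap with those of the TCDD rats at 19 h. At 0.05 there were 7 of 14 (9.52% of all), with Gpam higher by 1.11 (adjusted p = 0.0188) and Acaca (1370893_at) and Thrsp (1387852_at) lower by -1.02 (0.0127) and -0.54 (0.0276), and 8 of 14 did not overlap (15.7%). In L-E the Srebf1 change was 1.11 (adjusted p = 0.0888).

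The difference between the strains in this change was tested in a comparison added after the values had been seen. All 14 probe sets had a change that was lower in L-E than in H/W, none was called at 0.01 (0.0567% of all), and 13 had an unadjusted p under 0.05, as did 19.1% of all probe sets. At an adjusted p of 0.05 there were 2 of 14 (0.24% of all), Me1 (1370870_at) at -2.69 (adjusted p = 0.0307) and Acaca (1387538_at) at -1.46 (0.044). Both rest on low signals, since the first lay at 4.07 to 4.52 in H/W at 3 h and the second is the dim Acaca probe set. The brighter probe sets of these genes did not pass, Me1 (1370067_at) at -1.94 (adjusted p = 0.113) and Acaca (1370893_at) at -0.60 (0.261).

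The members also varied together from rat to rat. Of 40 rats, 6 had all 8 genes above their group's mean and 3 had all 8 below it, and 22 had 7 or 8 genes on the same side. L-E corn oil replicate 4 was the highest of these, on average 0.77 log2 units above its group, with Fasn at 10.67, Acaca at 9.72, Me1 at 9.51 and Thrsp at 13.75, and L-E corn oil replicate 2 was 0.54 below it. LnA TCDD replicate 2 was 0.70 above and replicate 1 was 0.45 below their group. With group means removed, the median correlation of the 28 gene pairs over 40 arrays was 0.609, and 18 exceeded 0.5. Rats share their cage and array with all 8 genes, so these correlations are a description. No such median was computed for other genes, so it is not shown to be particular to the members.

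Across the 32 livers of 19 h the pairs differed more. Fasn and Acaca had r = 0.926 and Fasn and Srebf1 0.829, whereas Fasn and Me1 had r = 0.00 over the same arrays, and the median of the 28 pairs was 0.292. Of 2129 genes with enough variance, those whose profile over the 32 arrays was most like Srebf1 were Rbfa (r = 0.777), Ethe1 (0.750), Acy1 (0.741), Mrpl1 (0.740) and Tsc22d1 (0.735). Those most like Fasn were Tkfc (0.901), Pygl (0.822), Sbk1 (0.820), Ethe1 (0.813) and Adss1 (0.813). Likeness was Pearson's r over all 19 h arrays, in which group differences and rat-to-rat differences both count.

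**Figure D4:**
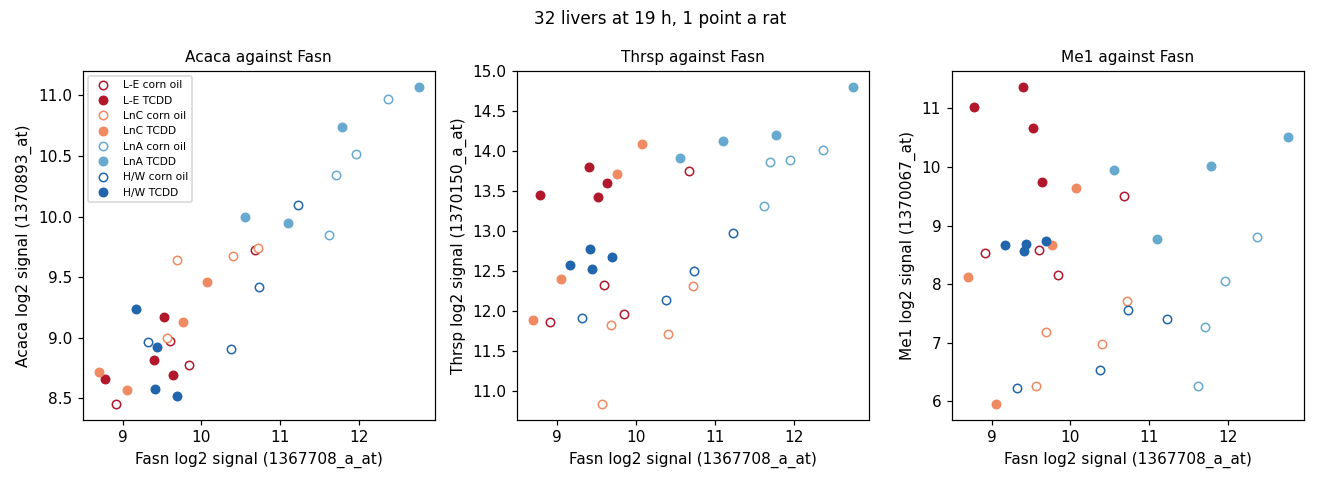
Log2 signal of Acaca, Thrsp and Me1 (vertical axes) against Fasn (horizontal axis) in the 32 livers of 19 h, 1 point a rat, with open points for corn oil and filled points for TCDD. Acaca rises with Fasn throughout (r = 0.926), and Me1 shows no common trend with Fasn (r = 0.00).

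Other genes of the pathway were read from lists of regulators and neighbouring steps, at the same adjusted p of 0.01. For TCDD against corn oil this called 1.68%, 0.901%, 0.782% and 0.366% of all probe sets in L-E, LnC, LnA and H/W. An unadjusted p under 0.05 was found for 16.8%, 13%, 12.3% and 11.1% of all, and several list counts below are near these shares. In the elongation and desaturation list (12 probe sets of 9 genes) TCDD raised 3 in L-E at 19 h, Elovl6, which lengthens palmitate, by 3.53, Elovl5, which lengthens polyunsaturated fatty acids, by 1.31, and Hsd17b12, the ketoacyl reductase of elongation, by 1.04. Elovl5 rose in LnC by 1.59 and 1.09 and in H/W by 1.20. In LnA none of the 12 was called, and 6 had an unadjusted p under 0.05. Of 45 probe sets of 29 lipogenic regulators, Nr1h3, which encodes LXR alpha, rose in LnC by 0.63 (adjusted p = 0.00255) and in H/W by 0.97 (0.00188), and none was called in L-E or LnA, where 11 and 6 had an unadjusted p under 0.05. In the mean response over the 4 strains/lines, a fit that called 11.4% of all probe sets, Nr1h3 rose by 0.76 (limma, adjusted p = 4.12e-12). Of 22 probe sets of acyl-CoA and carbon supply, Mlycd, which degrades malonyl-CoA, rose by 0.58 in L-E, and Pdha1, a pyruvate dehydrogenase subunit, fell by 0.54 in LnC, with none called in LnA or H/W (6 and 5 at an unadjusted p under 0.05).

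Of 19 probe sets of glycerolipid synthesis and lipid droplets, Gpd1, which makes glycerol-3-phosphate, rose by 0.79 in LnC, and none was called in the other 3 (8, 5 and 5 at an unadjusted p under 0.05 in L-E, LnA and H/W). Of 20 probe sets of sterol synthesis and uptake, targets of the related factor SREBP-2, Idi1 fell by 1.98 in L-E and Sc5d by 0.73 in LnC, and none was called in LnA or H/W (6 and 2 at an unadjusted p under 0.05). None was called in any of the 4 for 8 probe sets of NADPH supply (1 or 2 at an unadjusted p under 0.05), 9 of LXR targets other than Srebf1 (0 or 1), 10 of thyroid hormone response (0 to 2) and 11 of the fasting response (2 to 4). The share of all probe sets at an unadjusted p under 0.05 was 11.1% to 16.8% in these 4 comparisons. In the mean response over the strains/lines, whose background was 11.4%, Pgd of the pentose phosphate pathway rose by 1.47 and Mid1ip1, a protein related to Thrsp that acts on acetyl-CoA carboxylase, fell by 1.18. There too Elovl6 rose by 2.15, Pdk4, which turns off pyruvate dehydrogenase, rose by 1.28, Angptl4 fell by 1.73, and Cyp7a1, the rate-limiting enzyme of bile acid synthesis, fell by 4.23. Ehhadh and Pck1 of the fasting response were called as well, at -1.14 and -0.97. Angptl4, lower, and Pdk4, higher, belong to the fasting list too, so its called genes did not all go the same way. These genes are a selection, since the lists held further called genes in this fit. The regulators, for example, had 4 probe sets called higher and 3 lower.

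At 3 h the NADPH list had 3 of 8 probe sets called (1.77% of all), Pgd and Taldo1 higher in L-E than in H/W by 1.41 and 0.57 and H6pd lower by -0.73. From 3 h to 19 h after TCDD the sterol list rose in H/W in 10 of 20 probe sets (8 of 13 genes), where 4.25% of all probe sets were called. Msmo1 was at 2.48, Idi1 at 2.24, Lss at 1.54 and Mvk at 1.48. In L-E, where 3.44% of all were called, none of the 20 was, and 9 had an unadjusted p under 0.05. Time and scan day cannot be told apart here either, and there was no corn oil group at 3 h. In the same H/W comparison 8 of 45 regulator probe sets rose, among them Mid1ip1 by 3.46, Akt1 by 1.60, Srebf2 by 1.56 and Usf2 by 1.49, whereas in L-E 3 rose, Akt1 by 1.51, Akt2 by 0.90 and Rxra by 0.52. Lpin1, a phosphatidate phosphatase, fell in both strains, by 2.24 in L-E and 2.40 in H/W.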

How the data were processed

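Log2 signals of 40 Affymetrix arrays of rat liver were used as the authors deposited them. The submitters' processing notes name affy 1.10.0, GCRMA 2.4.1 and R 2.3.1, whereas the study's methods describe RMA with another probe map. GCRMA corrects background by probe sequence, normalizes by quantiles and summarises probes on the log2 scale. The table held 15923 probe sets, from which 57 controls were removed. A sole gene symbol was given for 12783, several for 312 and none for 2771. Every array column of the table was used (0 left out).

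Differences were fitted with limma 3.58.1 in R 4.3.3 (lmFit and eBayes, ± SE) over all 15866 probe sets, per strain or line (8 arrays), over 16 or 32 arrays for interactions and corn oil levels, and over 8 TCDD arrays at 3 h and between times, with Benjamini-Hochberg adjustment and a threshold of 0.01. The members and the gene lists were chosen with earlier results of these data known. Named were all members, up to 4 called genes of each pathway list by size for TCDD against corn oil in each strain or line, and the 5 genes most like Srebf1 and Fasn. For the other comparisons only some of the called list genes were named, and some lists with calls were left out. The mean TCDD response and the interaction of strain and time, with their alternatives, were chosen after seeing the data. The fits were tested on simulated data. The number of arrays limits the precision, and p-values measure the spread between rats of a group that shared a cage.

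Replicate numbers are given in the labels. Deviations from the group mean of same-numbered arrays correlated above 0.1 in all 4 pairs only for LnA (0.100 to 0.132). There the number may pair rats, which rests on the data alone, since no label says what it stands for. The main fits, those of LnA included, did not use the number, and the block was run as an alternative. Scan days were read from the scanner files. Alternatives were quantile normalization, median centring, omission of the lowest 40% of signals, 1 probe set or the mean of probe sets a gene, limma's trend, a replicate block, scan day as a block or taken alone, 1 fit over the 8 groups, a threshold of 0.05 and omission of each array.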

Additional observations from a re-analysis of the deposited data

Results flagged for a closer look

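Among 140 sets of 4 rats (14 probe sets in 10 groups), 9 held a rat whose gap to the nearest other rat exceeded Dixon's 95% critical value as a share of the set's range. Chance gives about 1 in 20, and this count is near that rate. The probe sets share their rats, so the flags are not independent. Me1 (1370870_at) was 8.59 in L-E corn oil replicate 4, above the other 3 at 6.82 to 7.01, and 5.53 in LnA corn oil replicate 1, below the others at 8.10 to 8.32. Thrsp was 14.28 (1371400_at) and 13.74 (1387852_at) in LnA TCDD replicate 2, with the nearest rats at 13.47 and 12.75. Acaca (1370893_at) was 9.0 in LnC corn oil replicate 4 and 9.53 in H/W TCDD 3 h replicate 1, each below its group, and its dim probe set (1387538_at) was 4.06 in LnC TCDD replicate 3. Acly was 11.56 in L-E TCDD 19 h replicate 4, above the others at 10.81 to 10.94. Gpam was 6.30 in H/W TCDD 3 h replicate 4, below the others at 7.21 to 7.25. L-E corn oil replicate 4 and LnA TCDD replicate 2 also had all 8 genes above their group's mean. Whether anything sets these rats apart was not tested.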

How the results depend on the processing

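Alternatives were run for 86 member differences, those with an unadjusted p under 0.05 and not every difference given above, and none of the 86 changed sign. Since they were chosen by their p in the same data, a change of sign was unlikely from the start. Of their values under the alternatives, 1746 stayed on their side of the threshold, 69 came to pass it and 37 no longer passed. Of the 14 probe sets, an adjusted p of 0.05 called 2 in L-E and 1 in H/W for TCDD against corn oil, 3 for LnC against LnA and 1 for LnA against H/W on corn oil, 11 at 3 h, 7 for the change with time in L-E, 7 in H/W, 7 for the mean response and 2 for the interaction of strain and time. Leaving out the lowest 40% of signals called 1 for LnC against LnA, 6 at 3 h, 6 for L-E and 6 for H/W with time and 5 for the mean response. One value a gene, by 1 probe set, called 2 at 3 h, 1 for L-E and 2 for H/W with time and 2 for the mean response. By the mean of its probe sets it called 2 at 3 h, 2 for L-E and 2 for H/W with time and 2 for the mean response. Both had fewer values to call. The replicate block called 2 at 3 h, 0 for L-E and 2 for H/W with time, and it changed no other count of members. Limma's trend called 6 at 3 h, 6 for L-E and 5 for H/W with time and 5 for the mean response. Quantile normalization called 3 at 3 h and 5 for the mean response. The cause was not tested. Leaving out 1 array at a time gave 0 to 2 in L-E (2 without corn oil replicate 4), 0 to 3 for LnC against LnA, 2 to 4 at 3 h, 1 to 3 for L-E and 3 to 5 for H/W with time, 2 to 5 for the mean response (5 without L-E corn oil replicate 4 or LnC TCDD replicate 1 or 2) and 0 in the other 10 comparisons.

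Counts over all probe sets moved more. The replicate block called 50 of all probe sets for L-E, 6 for LnC, 30 for H/W, 49 at 3 h, and 62 and 114 with time in L-E and H/W, instead of 266, 143, 58, 281, 545 and 674, and 1 fit over the 8 groups 764 (L-E), 465 (LnC), 255 (LnA) and 288 (H/W). In LnA 60 were called after quantile normalization and 55 after centring, 47 of them higher instead of 85 of 124. Without the lowest 40% of signals L-E had 421 and H/W 92, H/W had 28 with scan day as a block, and within scan day 2 L-E had 29 and H/W 0. Leaving out 1 array gave 96 to 186 (L-E), 60 to 135 (LnC), 35 to 79 (LnA), 26 to 54 (H/W), 107 to 158 at 3 h, and 213 to 440 and 367 to 487 with time. Centring also moved higher calls to 39 of 43 from 45 of 58 in H/W, to 72 of 295 from 156 of 362 for LnC against L-E and to 83 of 117 from 75 of 129 for L-E against H/W, and quantile normalization to 247 of 436 from 246 of 545 for L-E with time. LnA against H/W had 144 after centring instead of 269. No scaling moved the median of all probe sets by over 0.1.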
